A study of Homo sapiens with 6 samples.

Results

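The transcription factors NKX2-1, FOXA1, FOXA2, HNF4A, GATA6, SOX2, SOX9, KLF5 and TP63, which set the identity of lung and other foregut epithelia, were measured in H2122, an established cell line from a human lung adenocarcinoma. The 9 genes were chosen by symbol, and all 9 of them were among the 23368 genes of the count table. Cells carried a control shRNA (3 libraries) or an shRNA (a short hairpin RNA that lowers a chosen transcript) to LYCAT (3 libraries) and were taken after 48 hours. LYCAT is another name for LCLAT1, an enzyme that attaches fatty acids to lysophospholipids such as those of cardiolipin and phosphatidylinositol. All 6 libraries came from this 1 line, and both groups carried an shRNA. The labels leave unsaid whether replicate libraries are separate cultures, and the spread behind each p-value may therefore be technical.

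The foregut is the front part of the embryonic gut tube, from which the lung, trachea, oesophagus, stomach and liver arise, and a small set of transcription factors divides it. NKX2-1 marks the lung and thyroid fields and switches on surfactant genes, while FOXA1 and FOXA2 open chromatin for it and for many other endoderm factors. HNF4A drives liver and gut genes, and GATA6 acts in early endoderm and in lung epithelium. SOX2 marks the proximal airway and oesophagus, SOX9 the distal tips of the branching lung, and TP63 the basal cells of airway and squamous epithelium. KLF5 is a zinc finger factor of proliferating epithelia. In lung adenocarcinoma, loss of NKX2-1 is known to go with gut-like gene expression in which HNF4A takes part.

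The sequences before the start sites of 5 of the factors are given here because these genes run from well expressed factors to factors with almost no reads. They come from RefSeq on GRCh38.p14, where 7 of the 9 factors had an entry, FOXA2 and SOX9 being those with none. Each runs 5′ to 3′ on the strand of the gene, starts 250 bases before a RefSeq start and stops at that start or at the first base that GENCODE v29 places in an exon of the gene. The KLF5 stretch, for its upstream start, is chr13:73054726-73054975 on the plus strand. The FOXA1 stretch is chr14:37595349-37595499 on the minus strand, and that of NKX2-1, for its upstream start, is chr14:36520287-36520482 on the minus strand. The HNF4A stretches are chr20:44355449-44355698 and chr20:44400989-44401238 and that of TP63 is chr3:189631139-189631388, all on the plus strand. Capitals mark matches, on either strand, to the motifs described after the sequences.
KLF5, upstream start: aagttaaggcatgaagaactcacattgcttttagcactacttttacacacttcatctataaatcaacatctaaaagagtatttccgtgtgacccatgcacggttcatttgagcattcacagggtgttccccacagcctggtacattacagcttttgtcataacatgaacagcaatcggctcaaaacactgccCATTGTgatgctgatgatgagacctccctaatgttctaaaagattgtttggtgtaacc
FOXA1: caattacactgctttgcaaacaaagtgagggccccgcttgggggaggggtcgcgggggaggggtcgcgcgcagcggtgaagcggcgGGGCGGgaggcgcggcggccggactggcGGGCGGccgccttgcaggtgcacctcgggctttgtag
NKX2-1: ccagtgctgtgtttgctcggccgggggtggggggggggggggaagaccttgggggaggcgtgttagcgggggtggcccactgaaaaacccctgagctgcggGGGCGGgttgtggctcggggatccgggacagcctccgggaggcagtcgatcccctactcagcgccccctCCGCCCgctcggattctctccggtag
HNF4A, upstream start: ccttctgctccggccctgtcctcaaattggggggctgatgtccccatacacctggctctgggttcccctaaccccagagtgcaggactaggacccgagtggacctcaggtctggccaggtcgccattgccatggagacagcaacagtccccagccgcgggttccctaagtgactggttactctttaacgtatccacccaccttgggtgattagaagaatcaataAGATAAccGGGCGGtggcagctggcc
HNF4A, downstream start: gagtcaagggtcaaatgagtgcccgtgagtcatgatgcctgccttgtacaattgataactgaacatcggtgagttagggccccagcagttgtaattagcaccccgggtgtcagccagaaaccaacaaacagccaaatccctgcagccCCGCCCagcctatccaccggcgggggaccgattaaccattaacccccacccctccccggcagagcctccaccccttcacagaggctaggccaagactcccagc
TP63: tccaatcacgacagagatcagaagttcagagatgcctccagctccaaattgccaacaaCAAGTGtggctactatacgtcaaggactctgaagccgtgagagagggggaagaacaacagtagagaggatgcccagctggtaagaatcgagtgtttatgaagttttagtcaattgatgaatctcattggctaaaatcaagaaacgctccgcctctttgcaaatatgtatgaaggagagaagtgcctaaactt
The whole 250-base windows of FOXA1 and of the upstream NKX2-1 start were 67.2% and 70.8% G or C. Those of HNF4A were 58.4% and 58%, that of TP63 was 44%, and the median of all 35116 windows was 58%. KLF5 has a pair of RefSeq starts with unlike windows, the upstream one with 40.8% and the downstream one with 70.8% G or C, and counts per gene do not tell which start was used. The GC box GGGCGG, which KLF and SP factors bind, was in 42.6% of all windows of this length. Among the printed stretches it was in those of FOXA1, NKX2-1 and HNF4A but not in those of KLF5 and TP63. The whole window before the downstream KLF5 start, which is not printed, holds 2 matches to it. The SOX motif ACAATG, in 9.29% of all windows, is in the KLF5 stretch. The NKX2 motif CAAGTG, in 9.5% of all windows, is in the TP63 stretch. In bases that are not printed, it is also in the whole windows of FOXA1 and of the downstream KLF5 and NKX2-1 starts. The GATA motif AGATAA, in 9.17% of all windows, is in the upstream HNF4A stretch and in the whole window of the downstream NKX2-1 start. The forkhead motif TGTTTAC was in 2.98% of all windows, and among those of the factors it matched once, before the downstream NKX2-1 start. The HNF4 motif CAAAGTCC was in 1.02% of all windows and in none of those of the factors. No match in the printed stretches overlaps another, and a match shows the letters only, not a bound site.

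Library totals ran from 3118946 to 4930079 counts, so that 3 counts, taken as the limit of a count of 0, stood for 0.608 to 0.967 CPM (counts per 1000000 of the scaled library). Intervals and limits of this kind cover counting error only. The target LCLAT1 was at 56.8, 61.2 and 65.3 CPM with control shRNA and at 18.9, 22.6 and 23.6 CPM with LYCAT shRNA (log2 fold change -1.50, SE 0.114, edgeR adjusted p = 1.15e-18). The epithelial markers EPCAM, KRT8, KRT18, KRT19 and CDH1 were present at 36.4 CPM or more in every library, EPCAM at 616 to 661 CPM. Of 20 markers of fibroblasts, endothelium and blood, 5 were at 0 in all libraries, among them PECAM1, CDH5 and PTPRC. Their summed level was 40.4 to 143 CPM in the control and 30.0 to 52.1 CPM in the LYCAT shRNA libraries, COL1A1 being the largest part, and 0 of the 5 tested genes of the list passed with edgeR (1 lower at an unadjusted p under 0.05, 1 lower with DESeq2, 2 with limma-voom, and 3 with edgeR either at robust=FALSE or without control library 3). Control libraries 1 and 2 stood above the others in COL1A1 (59.4 and 82.7 CPM, against 16.4 to 28.3 CPM).

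H2122 cells expressed 7 of the 9 lineage factors, taking at least 1 CPM in every library as expressed. KLF5 and FOXA1 were well expressed, SOX2 was lower, and NKX2-1, SOX9, FOXA2 and GATA6 were low. HNF4A and TP63 were almost without reads. With at least 5 CPM in every library as the limit, 3 factors counted as expressed, KLF5, FOXA1 and SOX2.

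**Figure D1:**
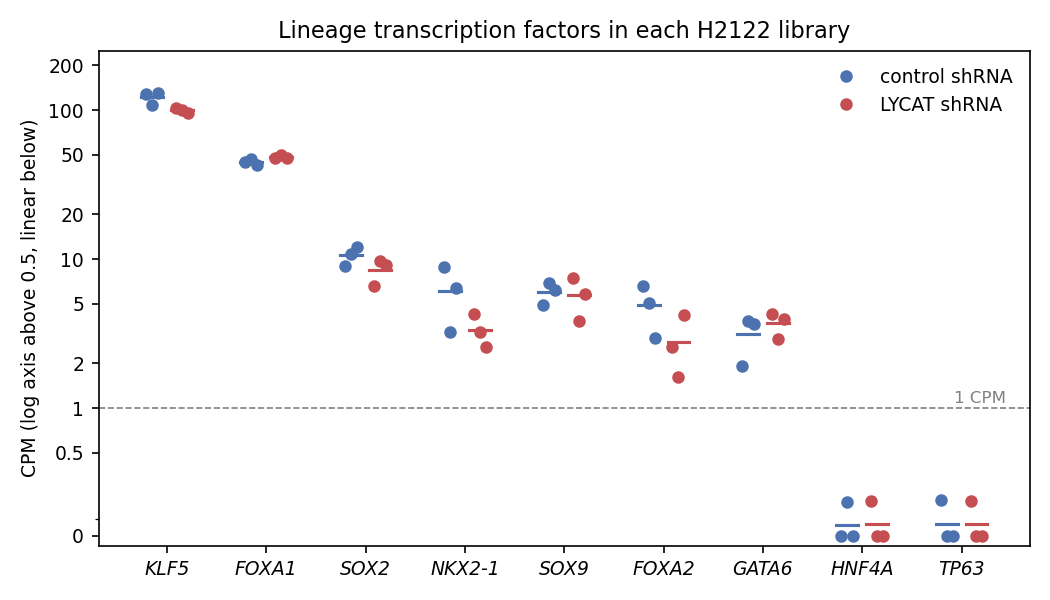
CPM of each of the 9 factors (y axis, logarithmic above 0.5 CPM and linear below) in the 3 control shRNA and 3 LYCAT shRNA libraries, with 1 point per library, a short line at each group mean and a dashed line at 1 CPM. KLF5 lies between 95.7 and 131 CPM, FOXA1 between 42.6 and 49.7 CPM, and HNF4A and TP63 lie under the dashed line in every library.

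Levels of different genes were compared as CPM per kilobase of exon (GENCODE v29 exons of the basic set, joined per gene), since a longer transcript gives more reads. On this scale the mean level in the control libraries was 32.6 ± 3.41 for KLF5, 15.7 ± 0.807 for FOXA1 and 4.22 ± 0.612 for SOX2 (SD, n = 3 each). KLF5, then FOXA1, then SOX2 was the order in each of the 6 libraries, and within each group none of the 3 overlapped with another or with a lower factor. Across the groups the lowest SOX2 value (2.62, LYCAT shRNA library 1) lay below the highest of NKX2-1 (2.83, control library 1). Next came NKX2-1 at 1.98 ± 0.895, FOXA2 at 1.88 ± 0.711 and SOX9 at 1.52 ± 0.252 CPM per kilobase (SD, n = 3 each). The libraries of these 3 overlapped, so their order is not resolved. GATA6 stood at 0.800 ± 0.271 CPM per kilobase in the control libraries, under each control value of SOX9, but the 2 genes overlapped in the LYCAT shRNA libraries. Over all 6 libraries the mean level per kilobase of KLF5 was above that of 79.0% of the tested genes that have a length, that of FOXA1 above 66.5%, that of SOX2 above 30.4% and those of NKX2-1, SOX9 and FOXA2 above 12.8%, 12.4% and 12.3%. GATA6 was above 5.87%.

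**Figure D2:**
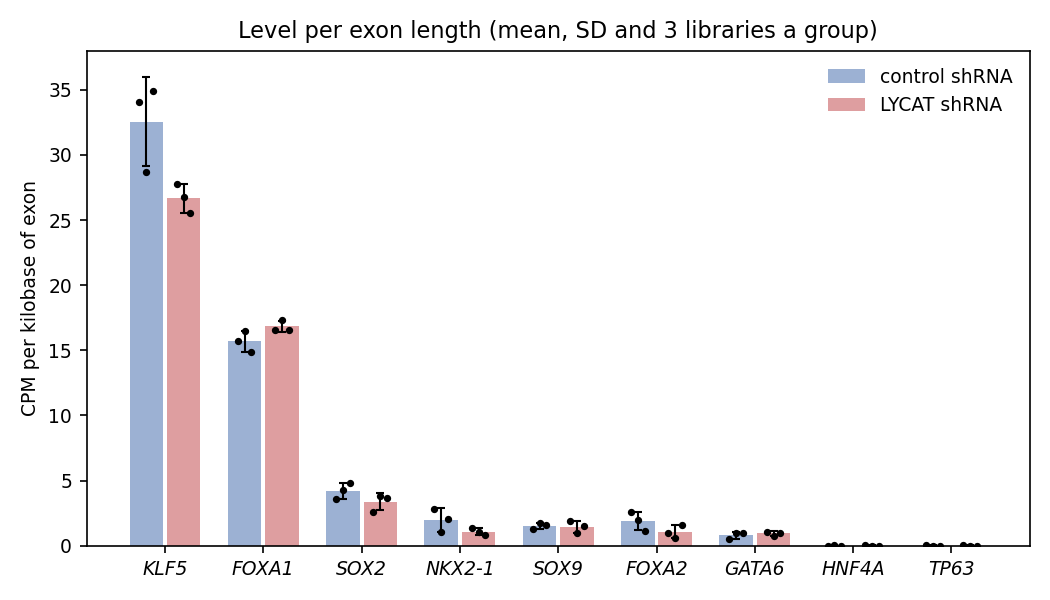
CPM per kilobase of exon (y axis, linear from 0) for the 9 factors, with bars for the group mean, error bars for the SD over 3 libraries and a dot per library. The bars of KLF5 (32.6 and 26.7) and FOXA1 (15.7 and 16.8) stand above all others, and those of HNF4A and TP63 are at the base line.

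HNF4A, the liver and gut factor, had 1 count in control library 2, 1 count in LYCAT shRNA library 1 and 0 in the other 4 libraries. TP63, the basal cell factor, had 1 count in control library 1, 1 in LYCAT shRNA library 1 and 0 in the other 4. Single counts of this size give 0.203 to 0.214 CPM, and the exact Poisson upper limit over both genes and all 6 libraries was at most 1.19 CPM. Both groups were under the limit of 3 counts for both genes, so no fold is given and neither gene was tested. Counts per gene do not separate the long and short isoforms of TP63, or the transcripts of the 2 HNF4A starts.

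Setting the LYCAT shRNA libraries against the controls asks how the factors differ when LCLAT1 is reduced. Of the 7 factors with enough counts to test, 1 fell, KLF5, 0 rose and 6 did not pass. Among all 11097 tested genes 19.1% changed, 9.81% rising and 9.26% falling, so 1 in 7 is near the background. DESeq2 and limma-voom each called 1 of these 7 factors, beside 1193 and 1985 of all genes. At an unadjusted p under 0.05 there were 3 such factors, KLF5, NKX2-1 and FOXA2, all lower with LYCAT shRNA, and 0 were higher. At that threshold stood 30.8% of all tested genes, 15.3% being lower. The median log2 fold change of the 7 was -0.28, against -0.01 for all tested genes. In bulk RNA of this kind, less RNA per cell and fewer cells that express a gene cannot be told apart.

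KLF5 had 128, 107 and 131 CPM in control libraries 1 to 3 and 104, 100.3 and 95.7 CPM in LYCAT shRNA libraries 1 to 3. The lowest control library lay above the highest LYCAT shRNA library, so the groups did not overlap, as was so for 32.8% of all tested genes. The mean went from 122 ± 12.8 to 100 ± 4.13 CPM (SD, n = 3 each), a 1.22-fold fall (log2 fold change -0.28, SE 0.0743, 95% interval -0.43 to -0.13, edgeR quasi-likelihood adjusted p = 0.00324). The change is small, and against a 1.5-fold change it did not pass. Without control library 3, the highest of the 6, KLF5 did not pass (log2 -0.23, edgeR adjusted p = 0.0555). Without control libraries 1 and 2, which were high in collagen reads, its log2 fold change was -0.39. That fit has control library 3 as its only control, so a larger fall follows from the libraries left out.

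FOXA1, the forkhead pioneer factor, had 45.0, 47.2 and 42.6 CPM with control shRNA and 47.4, 49.7 and 47.4 CPM with LYCAT shRNA. All 3 LYCAT shRNA values lay above all 3 control values, by little, as was so for 16.6% of all tested genes. The means were 44.9 ± 2.31 and 48.2 ± 1.30 CPM (SD, n = 3 each; log2 0.09, SE 0.101, edgeR adjusted p = 0.578), and the 95% interval of the fold ran from 0.928 to 1.23. Per kilobase, KLF5 exceeded FOXA1 by 1.74-fold to 2.35-fold in the control and by 1.54-fold to 1.67-fold in the LYCAT shRNA libraries. That these ratios do not overlap follows from the values of KLF5 and FOXA1 given above and is not a further result.

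FOXA2, its close paralog, had 6.64, 5.07 and 2.96 CPM with control shRNA and 2.55, 1.61 and 4.20 CPM with LYCAT shRNA. Control libraries 1 and 2 were highest, and control library 3 fell among the LYCAT shRNA libraries. The means were 4.89 ± 1.85 and 2.79 ± 1.31 CPM (SD, n = 3 each; log2 -0.78, SE 0.343, edgeR adjusted p = 0.105). FOXA2 passed without control library 3 (log2 -1.01, edgeR adjusted p = 0.0443). Without control libraries 1 and 2 its log2 fold change was -0.03, with control library 3, its lowest control, as the only control left. Control libraries 1 and 2 are also those with the most collagen reads, and the part of this in the FOXA2 values was not tested. Per kilobase, FOXA1 exceeded FOXA2 in every library, by 6.16-fold to 13.1-fold in the control and by 10.3-fold to 28.0-fold in the LYCAT shRNA libraries.

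NKX2-1, the lung and thyroid factor, had 8.79, 3.24 and 6.40 CPM with control shRNA, from 41, 16 and 26 counts, and 4.25, 3.22 and 2.57 CPM with LYCAT shRNA, from 20, 10 and 11 counts. Control library 2 lay at the level of the LYCAT shRNA libraries, and the exact Poisson intervals of control libraries 1 and 2 (6.31 to 11.9 and 1.85 to 5.27 CPM) did not overlap, so the controls differed among themselves by more than counting error. The means were 6.14 ± 2.78 and 3.35 ± 0.849 CPM (SD, n = 3 each; log2 -0.84, SE 0.322, edgeR adjusted p = 0.0542), just above the threshold of 0.05. Without control library 2 NKX2-1 passed as lower (log2 -1.17, edgeR adjusted p = 0.00439), and without control library 1 its log2 fold change was -0.47 (edgeR adjusted p = 0.458). With DESeq2 its adjusted p was 0.221 and with limma-voom 0.145.

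SOX2, the proximal airway factor, had 9.0, 10.7 and 12.1 CPM with control shRNA and 6.59, 9.67 and 9.11 CPM with LYCAT shRNA. LYCAT shRNA library 1 was lowest and control library 3 highest, and the groups overlapped through control library 1, which lay below LYCAT shRNA libraries 2 and 3. The means were 10.6 ± 1.54 and 8.46 ± 1.64 CPM (SD, n = 3 each; log2 -0.34, SE 0.215, edgeR adjusted p = 0.288). SOX2 lies within SOX2-OT, a noncoding gene of the same strand with 3 counts over all 6 libraries. How reads that fall in both genes were counted is not given, so the number shared is not known. NKX2-1, FOXA2, GATA6, SOX9, HNF4A and TP63 also overlap other genes of the GENCODE v29 annotation. Of those, NKX2-1-AS1, GATA6-AS1 and SOX9-AS1 are not in the count table under these names, and their part in the counts was not tested.

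SOX9, the distal tip factor, had 4.93, 6.89 and 6.16 CPM with control shRNA and 7.44, 3.87 and 5.84 CPM with LYCAT shRNA. Both the highest and the lowest value came from LYCAT shRNA libraries. The means were 5.99 ± 0.991 and 5.72 ± 1.79 CPM (SD, n = 3 each; log2 -0.02, edgeR adjusted p = 0.967), with a 95% interval of the fold from 0.679 to 1.43. Per kilobase SOX2 exceeded SOX9 in all 6 libraries, by 1.39-fold to 3.91-fold.

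GATA6, the endoderm factor, had 1.93, 3.85 and 3.69 CPM with control shRNA and 4.25, 2.90 and 3.97 CPM with LYCAT shRNA. Control library 1 was lowest, and the other 5 libraries overlapped. The means were 3.16 ± 1.07 and 3.71 ± 0.712 CPM (SD, n = 3 each; log2 0.26, SE 0.346, edgeR adjusted p = 0.658). At 9 to 20 counts per library, the 95% interval of the fold was 0.745 to 1.94, which holds a rise of 1.5-fold but not a fall of 1.5-fold.

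**Figure D3:**
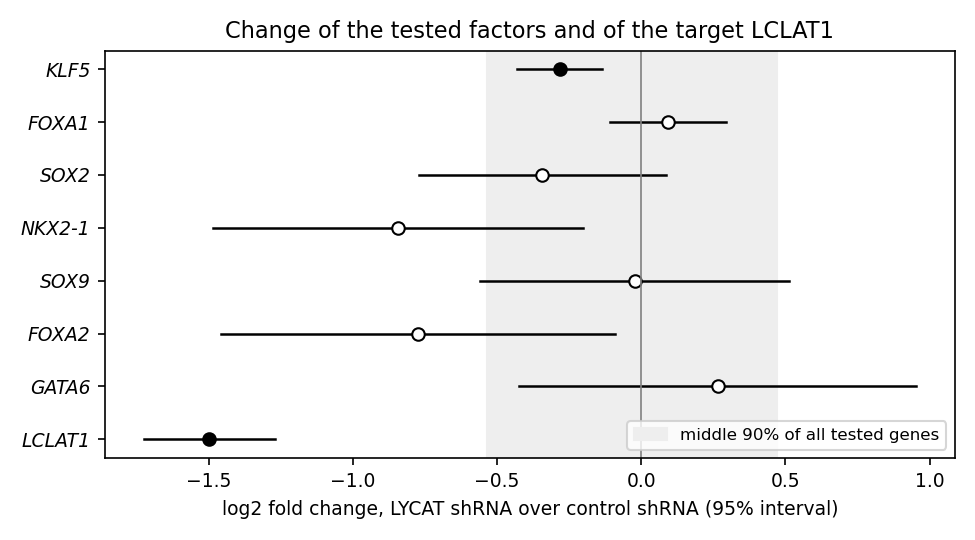
Log2 fold change of LYCAT shRNA over control shRNA (x axis) with 95% intervals for the 7 tested factors and for LCLAT1, filled where the edgeR adjusted p was under 0.05, over a grey band that holds the middle 90% of all tested genes. KLF5 is the filled factor, at -0.28 with a short interval, while NKX2-1 (-0.84) and FOXA2 (-0.78) lie further from 0 with long intervals.

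**Figure D4:**
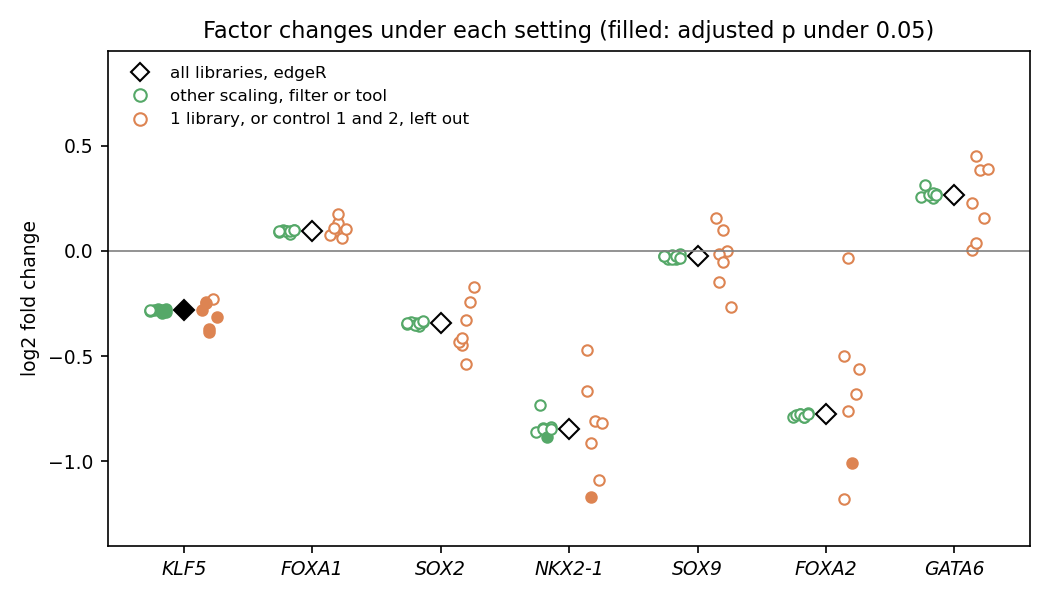
Log2 fold change (y axis) of the 7 tested factors under each setting, with a diamond for all libraries, circles on the left for another scaling, filter or tool, circles on the right for fits with libraries left out, and filled symbols for an adjusted p under 0.05. KLF5 stays between -0.39 and -0.23, and the circles with libraries left out spread most for FOXA2, from -1.18 to -0.03.

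The genes whose profile over the 6 libraries was most like that of KLF5 were KIF15, a mitotic kinesin, and UBQLN2, an ubiquilin of protein degradation. Their log2 CPM, centred on the mean of each gene, differed from that of KLF5 by a root mean square of 0.0324 and 0.0346, where the median of the 9958 genes compared was 0.219. Both were picked as the closest of these 9958 genes, so their place under the median was set by that choice. KIF15 stood at 48.8 ± 5.40 and 39.7 ± 1.51 CPM and UBQLN2 at 44.3 ± 4.55 and 36.7 ± 0.286 CPM (SD, n = 3 each) in the control and LYCAT shRNA libraries.

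Relatives of the 9 factors were described next, as 47 paralogs. 20 of them could be tested: 3 rose and 2 fell. The other 15 did not pass, and the median log2 fold change of the 20 was -0.05. Among all tested genes, for comparison, 9.81% rose and 9.26% fell. KLF6, a zinc finger factor related to KLF5, went up 1.60-fold, from 29.9 ± 2.30 to 47.4 ± 4.58 CPM (SD over 3 libraries; log2 0.67, edgeR adjusted p = 1.92e-06). SOX12 fell 1.39-fold from 96.8 ± 5.07 to 69.9 ± 2.66 CPM (log2 -0.47, edgeR adjusted p = 4.04e-06), and SOX7 rose 1.43-fold from 25.0 ± 2.79 to 35.7 ± 5.57 CPM. SOX7 did not pass without LYCAT shRNA library 1 or without control libraries 1 and 2 (edgeR adjusted p = 0.0760 and 0.151). KLF16 rose by 0.37 and KLF15 fell by 0.74 on the log2 scale, and each lost its call without several of the single libraries (edgeR adjusted p up to 0.213 and 0.0872). SOX4, the paralog with the most reads, stood at 163 ± 12.2 and 161 ± 2.88 CPM, and KLF10 at 42.3 ± 5.16 and 45.1 ± 3.23 CPM (SD, n = 3 each); neither passed. TP73, a relative of TP63, had 4 counts in all.

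Of 43 other epithelial lineage factors 23 had enough counts. Among them 5 fell, 1 rose and 17 did not pass, and their median log2 fold change was -0.0039. Falls made up 9.26% and rises 9.81% of all tested genes. ID2, an inhibitor of helix-loop-helix factors found at lung tips, fell 1.52-fold from 40.1 ± 2.91 to 26.5 ± 1.45 CPM (log2 -0.61, edgeR adjusted p = 4.42e-05). OVOL2, which holds cells in the epithelial state, fell 1.66-fold from 19.5 ± 2.39 to 11.6 ± 2.07 CPM (log2 -0.73, edgeR adjusted p = 0.000988). CEBPB, the most abundant factor of the list, fell 1.17-fold from 394 ± 31.3 to 336 ± 15.1 CPM. GRHL2 and TFAP2C, named after their values were seen, made up the 5 that fell, by 0.46 and 0.41 on the log2 scale. FOXP1 (110 ± 2.40 and 110 ± 2.58 CPM) and EHF (72.6 ± 5.67 and 65.9 ± 6.28 CPM; SD, n = 3 each) did not pass. The neuroendocrine factors NEUROD1 and INSM1 were at 0 in all libraries, and FOXJ1, the factor of ciliated cells, had 1 count in all.

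Genes that mark the tissues these factors specify were counted as expressed by the limit of 1 CPM in every library. It held for 4 of 19 lung alveolar and airway, 3 of 24 gut and liver and 10 of 20 basal and squamous genes. The share of all genes over this limit was not computed. Enough counts to test were found for 10 of the 20 basal and squamous genes and for 11097 of all 23368 genes, which is near background. The 10 expressed genes are SFN, PERP, ITGA6, ITGB4, SERPINB5, S100A2, JAG2, TRIM29, KRT17 and KRT6A. The basal genes KRT5, KRT14 and TP63 had 0, 1 and 2 counts in all. Of the 19 lung alveolar and airway genes 10 were at 0 in every library, among them the surfactant genes SFTPA1, SFTPA2, SFTPB and SFTPC and the club cell gene SCGB1A1, and NAPSA had 2 counts in all. AGER, a marker of flat alveolar cells, had 31 counts at 0.967 to 1.48 CPM, while SLC34A2, SCGB3A2 and SFTPD had 11, 9 and 4 counts in all. A count of 0 allows up to 0.967 CPM in the shallowest library by the limit of 3 counts, and up to 1.19 CPM by the exact Poisson upper limit. Of the 3 that were tested 1 rose and 0 fell, also 0 at an unadjusted p under 0.05 and with DESeq2 or limma-voom. Rises made up 9.81% and falls 9.26% of all tested genes, and 3 genes are too few to compare with these shares. LPCAT1, which makes surfactant phospholipid, was the gene that rose, by 0.57 on the log2 scale from 17.1 ± 2.40 to 25.6 ± 0.743 CPM (SD, n = 3 each, edgeR adjusted p = 0.00209). ABCA3, a lamellar body transporter, stood at 14.5 ± 0.645 and 18.0 ± 3.82 CPM and LAMP3 at 2.08 ± 0.606 and 2.67 ± 0.640 CPM, and neither passed.

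Of 24 gut and liver genes 6 were at 0 in every library and 5 were tested, of which 2 rose, 1 fell and 2 did not pass. Rises made up 9.81% and falls 9.26% of all tested genes, and 5 genes are too few to compare with these shares. SERPINA1, which encodes the protease inhibitor alpha-1 antitrypsin, rose by a factor of 3.70, from 5.30 ± 0.554 to 19.7 ± 2.80 CPM (SD over 3 libraries; log2 1.89, SE 0.203, edgeR adjusted p = 4.57e-12). MUC13, a membrane mucin, rose 1.53-fold from 14.7 ± 1.55 to 22.3 ± 2.74 CPM, and did not pass without LYCAT shRNA library 1 or without control libraries 1 and 2 (edgeR adjusted p = 0.0577 and 0.21). TFF1, a secreted trefoil peptide of the stomach, fell from 25, 13 and 16 counts to 0, 3 and 5 counts (log2 -2.52, SE 0.515, edgeR adjusted p = 0.000136), a fold that is imprecise at these counts. CPS1, the urea cycle enzyme, was the most abundant of the list at 34.9 ± 2.85 and 33.1 ± 1.45 CPM. ALB had 2 counts in all, and VIL1, LGALS4 and CDH17 had 2, 1 and 0. The liver genes APOA1, AFP and TTR of the same list had 102, 24 and 14 counts in all.

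Of 20 basal and squamous genes 10 were tested. By edgeR 5 of them rose, 0 fell and 5 did not pass, and the median log2 fold change was 0.21. Among all tested genes 9.81% rose and 9.26% fell. The list was chosen with earlier results of these data known. At an unadjusted p under 0.05, 7 were higher and 1 lower, beside 30.8% of all tested genes in either direction. DESeq2 and limma-voom called 0 of the list lower. SFN, an epithelial 14-3-3 protein, was 1.54-fold higher, at 214 ± 14.8 with control shRNA and 329 ± 17.9 CPM with LYCAT shRNA (SD, n = 3 each; log2 0.63, edgeR adjusted p = 4.83e-15). KRT6A, a stress keratin, rose 2.85-fold from 2.12 ± 0.209 to 6.30 ± 1.90 CPM (log2 1.51, edgeR adjusted p = 0.000478). The other rises, in S100A2 (log2 0.27), SERPINB5 (0.23) and PERP (0.16), were small, and without single libraries only 2 to 4 of the list rose. With library totals, with DESeq2 and without control libraries 1 and 2, 2 of the list rose. KRT5, KRT14, DSG3 and CLCA2, markers of basal and squamous cells, had 0, 1, 3 and 0 counts in all. Others of the list had more, with 107 counts for KRT17 and 156 for TRIM29.

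Of 14 signals of lung branching 6 were tested. Of these 2 rose, 1 fell and 3 did not pass, and the median log2 fold change was -0.27. Rises made up 9.81% and falls 9.26% of all tested genes, and 6 genes are too few to compare with these shares. WNT7B, a Wnt ligand of lung epithelium, rose from 5, 8 and 4 to 65, 31 and 38 counts (log2 3.12, SE 0.327, edgeR adjusted p = 1.8e-12). HMGA2, a chromatin protein of fetal tissue, rose by 0.47 on the log2 scale, from 27.9 ± 3.39 to 38.7 ± 1.94 CPM (SD, n = 3 each). PTCH1, the hedgehog receptor, fell 1.77-fold from 8.35 ± 1.54 to 4.60 ± 0.945 CPM (log2 -0.83, edgeR adjusted p = 0.0163), and did not pass without control library 1 or LYCAT shRNA library 1 or 2 (edgeR adjusted p = 0.0532 to 0.126). BMP4 (12.0 ± 3.19 and 8.61 ± 0.922 CPM) and SPRY2 (10.6 ± 0.439 and 10.3 ± 1.67 CPM) did not pass, though BMP4 did without control library 3 (log2 -0.63, edgeR adjusted p = 0.0420). FGF10, SHH and WNT2, ligands of the branching lung, were at 0 in all libraries.

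**Figure D5:**
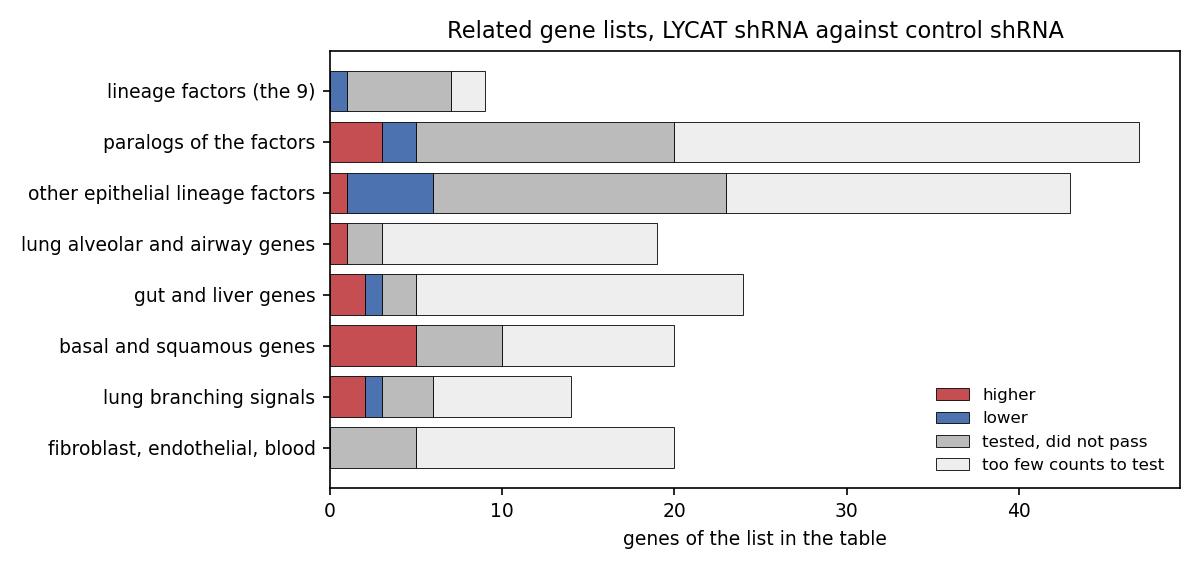
Number of genes (x axis) of the 9 factors and of 7 related lists that were higher, lower, tested without passing, or had too few counts to test, with LYCAT shRNA against control shRNA at an edgeR adjusted p under 0.05. The bar of the 9 factors holds 1 lower gene, and the basal and squamous list holds 5 higher and 0 lower. Of all tested genes 9.81% were higher and 9.26% lower, and the lists were chosen with earlier results of these data known.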

How the data were processed

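RNA of 3 control shRNA and 3 LYCAT shRNA libraries was sequenced. The authors deposited 1 table of raw counts per gene symbol; the tools featureCounts 1.5.1, Bowtie2, BWA 0.7.15 and bcl2fastq 2.17 and the builds mm10 and hg19 are those of the submitters' processing notes, which give no role to each here. The aligner of this table, its build and the use of strand are not given in the sources used here. Columns of the LYCAT shRNA group carry what reads as a misspelling of that name. Coordinates are given for RefSeq promoter stretches only, since the annotation used here for lengths, overlaps and promoters is GRCh38.

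Low counts were removed with filterByExpr, which left 11097 genes. Counts were scaled by TMM and tested with edgeR 4.0.16 (R 4.3.3) by its quasi-likelihood test, robust=TRUE, in a model of group alone. Benjamini-Hochberg adjustment covered every tested gene, and an adjusted p under 0.05 is called a change. SE is the log2 fold change divided by the root of F. On simulated counts for these 11097 genes, with 200 changed, edgeR recovered 68% of 1.5-fold and 89% of 2-fold changes, and 3.09% of calls were false. The 200 were drawn from genes of all levels, so these rates were not measured for factors of few counts. They are also fewer than the 2117 genes called in the data. DESeq2 1.42.0 and limma-voom (limma 3.58.1) were alternatives, beside other scalings and filters, a 1.5-fold threshold (glmTreat), a replicate block and leaving out libraries. The factors and lists were chosen with earlier results of these data known. Genes named are the 9 factors, LCLAT1, from each list up to 3 changed genes in each direction by adjusted p and the 3 most abundant, and the 2 genes most like each changed factor among those with at least 5 CPM; other names were chosen after their values were seen. Some single genes of the lists are not reported here.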

Additional observations from a re-analysis of the deposited data

How the results depend on the processing

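Over the 16 alternatives KLF5 kept its direction and passed in 14, the exceptions being glmTreat against a 1.5-fold change and the fit without control library 3. FOXA1, GATA6 and SOX2 kept their direction and passed in none. The replicate numbers do not pair the samples (correlations of same-numbered deviations 0.00509, -0.0645 and -0.0477), and with the replicate block 2 factors passed, KLF5 and NKX2-1 (edgeR adjusted p = 0.0413). The count of changed factors was 0 with glmTreat, and 1 to 2 with 1 library left out, NKX2-1 being added without control library 2; without control library 3 FOXA2 passed and KLF5 did not. Counts of changed genes (2117, 1089 higher and 1028 lower) went to 1193 (635 and 558) with DESeq2, 148 (84 and 64) with glmTreat, and 1129 (573 and 556) without control libraries 1 and 2, a choice made after seeing the data that takes the spread of the single remaining control from the LYCAT shRNA libraries. With 1 library left out the total ran from 1448 to 2228. With 5 CPM as the limit 3 factors were expressed. Signs turned for values near 0 or of few counts: SOX9 (0.0988 and 0.155 without control library 2 or LYCAT shRNA library 2, from -0.267 with 1 library left out), SOX4 (-0.0579 to 0.0465 with 1 left out, 0.0289 without control libraries 1 and 2), FOXP1 (-0.0102 with library totals, -0.0165 to 0.0236 with 1 left out), SPRY2 (-0.130 to 0.0776 with 1 left out, 0.0151 without control libraries 1 and 2), COL1A2 (2.02 without control libraries 1 and 2) and ACTA2 (-0.0229 to 0.343 with 1 left out); the cause was not tested. A mean of at least 5 CPM leaves 4 of the factors in the fit, without NKX2-1, FOXA2 and GATA6. Depth limits these 3 factors to 5 to 41 counts a library, and left HNF4A and TP63 untested.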
